A study of Homo sapiens with 36 samples.

Results

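MINO is an established human mantle cell lymphoma line, and its response to 24 h of GS716054, a compound against the KDM5 lysine demethylases, was described across all genes. The libraries were chosen by their labels alone, as line MINO, 24 h, and either GS716054 or the vehicle DMSO, which gave 6 of the 36 libraries of the series (3 per treatment, biological replicates 1, 2 and 3). Cells of both groups had been grown in RPMI-1640 medium with fetal bovine serum, L-glutamine and antibiotics and differed in the labels only in the agent added. The dose of GS716054 is not given in the sources used here. MINO libraries at 72 h and the 24 h libraries of the mantle cell lymphoma lines JEKO and UPN-1 served as comparisons. Each line is 1 cell culture model, and nothing in the labels says whether the replicates came from separate cultures, so p-values measure the spread between these libraries.

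KDM5 enzymes remove methyl groups from lysine 4 of histone H3, a mark that sits at the start of active genes, and in cells they act together with other chromatin and transcription factors. Mantle cell lymphoma is a cancer of mature B cells that usually carries a translocation driving cyclin D1, and its cells depend on signals from the B-cell receptor and NF-kappaB. MYC, a transcription factor that pairs with MAX, drives genes for ribosome production, nucleotide synthesis and amino acid uptake in dividing B cells.

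Between 9269078 and 12774197 reads per library fell in genes, so that 3 counts, the limit that a count of 0 allows, correspond to 0.235 to 0.324 CPM (counts scaled to the size of the library) and cover counting error only. The treatments separated along the first principal component (42.4% of the variance). DMSO replicate 2 stood apart on the second (23.3%), and counts without it are given with those that leave out each of the other libraries. The 11 B-cell and mantle cell lymphoma marker genes summed to 4610 to 5425 CPM in DMSO and 6961 to 7321 CPM in GS716054 libraries, and none of them was at 0. The monocyte list summed to 0.553 to 1.85 CPM in DMSO and 1.92 to 5.96 CPM under GS716054 (5 of 10 genes at 0), and the lists of erythroid cells and of epithelial cells or fibroblasts to at most 8.52 CPM. The T-cell list summed to 115 to 151 CPM in DMSO and 163 to 193 CPM under GS716054 with CD3D, CD2 and TRAT1 at 0, and the NK-cell list to 50.4 to 63.2 and 79.5 to 86.5 CPM, with CD7 at 108 to 182 CPM and PRF1 at 50.1 to 86 CPM; their part in the results was not tested. In bulk RNA, a change in the number of cells of a kind and a change in RNA per cell cannot be told apart.

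After 24 h of GS716054, the genes that fell included MYC and members of the ribosome production, nucleotide synthesis and amino acid supply lists, and the genes that rose included members of the B-cell receptor signalling, NF-kappaB, B-cell surface antigen and BCL2 family lists. Of 15028 genes tested, 994 (6.61%) had a Benjamini-Hochberg adjusted p below 0.05 in edgeR's quasi-likelihood test with a replicate block and are referred to as called, 561 higher (3.73%) and 433 lower (2.88%). At least a 2-fold change was seen for 232 of the higher (1.54% of all genes) and 68 of the lower genes (0.452%). The median log2 fold change was 0.90 among genes called higher and -0.70 among those called lower, against 0.00 over all genes. Treated and DMSO libraries did not overlap for 529 of the 561 higher and 427 of the 433 lower genes, while such separation was present in 18% and 16.9% of all genes tested. Genes called lower were the more abundant, with a median DMSO level of 53.7 CPM against 20.4 CPM for genes called higher and 19.0 CPM for all genes. Of the genes called higher, 49 had a DMSO mean under 1 CPM, and 1 of those called lower did.

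How many genes were called depended strongly on how the spread was estimated. A block within each time called 2373 genes (15.8%), among them all 994, and no block called 359 (2.39%). Leaving out 1 library called 451, 296 and 454 genes without DMSO replicates 1, 2 and 3, and 243, 318 and 239 without GS716054 replicates 1, 2 and 3. In all 6 of these fits, 119 genes were called higher and 41 lower, and they are named in the text as called whichever 1 library was left out. With the block within each time, 8.43% of all genes were called higher and 7.36% lower, and without a block 1.44% and 0.952%, which are the backgrounds for the counts from those fits given beside the lists.

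**Figure D1:**
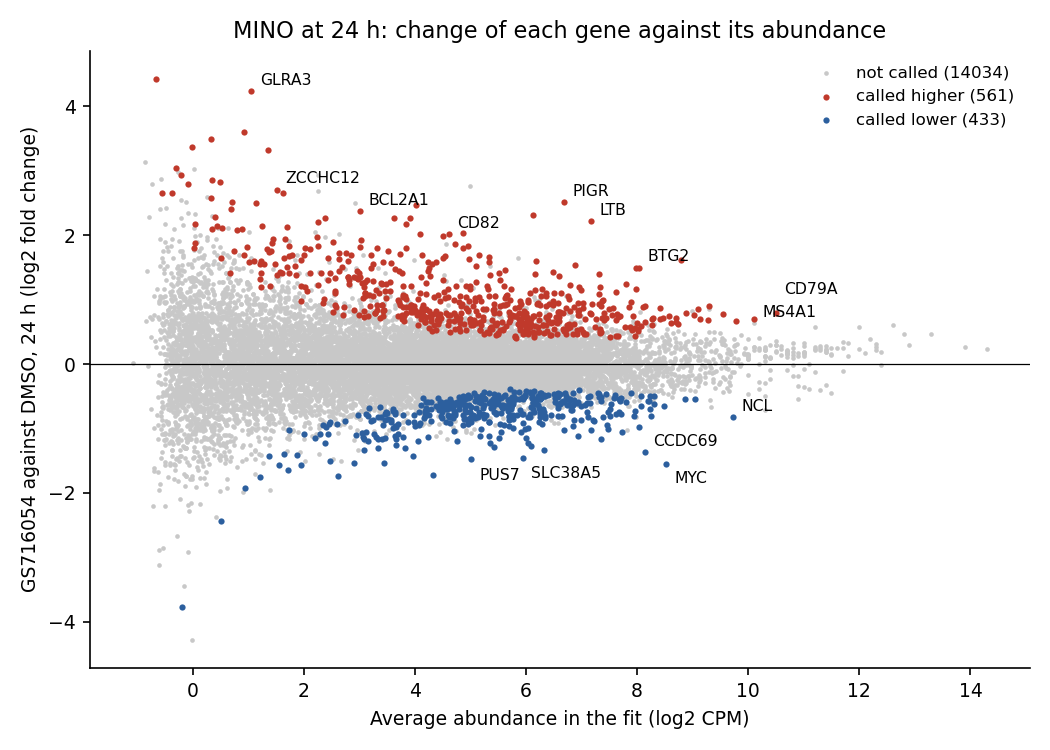
Each point is 1 of 15028 genes, with its average abundance in the fit on the x axis (log2 CPM) and its log2 fold change of GS716054 against DMSO at 24 h in MINO on the y axis. The 561 genes called higher are red, the 433 called lower blue, and MYC and NCL stand among the most abundant genes that fell.

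The KDM5 genes themselves were measured first. KDM5B, an H3K4 demethylase common in proliferating cells, had 31.5, 52.2 and 32.3 CPM in DMSO replicates 1, 2 and 3 and 56.3, 95.3 and 57.9 CPM in the GS716054 replicates, higher in each same-numbered pair. Its log2 fold change was 0.85 (SE 0.26, adjusted p = 0.0658) and so was not called, but with the block within each time the adjusted p was 0.000252. Without a block the adjusted p of KDM5B was 0.478, and without any 1 of the 6 libraries it was up to 0.273. KDM5A (0.31, adjusted p = 0.277), KDM5C (0.11, 0.639) and KDM5D (-0.55, 0.197) were not called either. Among 27 tested genes of the KDM5 family and other H3K4 enzymes, 2 rose and 3 fell with the block within each time. In the fit used here 0 rose and 2 fell (7.41% against 2.88% of all genes). These were SETD7, an H3K4 monomethylase, at -0.60 (SE 0.12, adjusted p = 0.0134), and WDR5, a core subunit of the H3K4 methylase complexes, at -0.52 (SE 0.14, adjusted p = 0.0393). The list had a median log2 fold change of -0.09. SETD7 lost its call without any library other than DMSO replicate 2 (adjusted p up to 0.0701), and WDR5 without any 1 of the 6 libraries (adjusted p up to 0.195).

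Of 12 tested genes of the MAX network, MYC fell, MXD4 rose and the others were not called. MYC and MXD4 each made 8.33% of the list, against 2.88% of all genes lower and 3.73% higher. With the block within each time MLX, which pairs with other members of the network, was called lower as well (-0.44, adjusted p = 0.16 with the additive block). MYC had 472, 504 and 431 CPM in DMSO replicates 1, 2 and 3 and 163, 154 and 163 CPM in the GS716054 replicates. Every treated library lay below every DMSO library, and the treated values lay close together. The means were 469 ± 36.5 and 160 ± 4.87 CPM (SD, n = 3), and the log2 fold change was -1.55 (SE 0.13, adjusted p = 0.000223). MXD4, a MAX partner that opposes MYC at shared target genes, went from 30.1, 36.9 and 36.2 to 63.5, 89.5 and 68.7 CPM, with no overlap and a log2 fold change of 1.10 (SE 0.14, adjusted p = 0.00142). MYC and MXD4 were called whichever 1 library was left out. Among the other 10 tested members MAX, the shared partner, had 0.07, the repressors MNT and MXI1 -0.07 and -0.23, MLX -0.44, and MYCN and MYCL, both at low counts, 1.21 and 0.84.

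Ribosome biogenesis genes, which make and assemble ribosomal RNA in the nucleolus, made up 28 of the 433 genes that fell. All 61 tested members had a negative log2 fold change, with a median of -0.54 and a range of -1.30 to -0.18. In 58 of the 61 every treated library lay below every DMSO library, which was so for 16.9% of all genes tested. These 28 were 45.9% of the list, and 0 rose, against 2.88% and 3.73% of all genes. With the block within each time 49 fell, without a block 10, and leaving out any 1 of the 6 libraries left 3 to 14. To show the start sites of genes that fell, RefSeq promoter windows (GRCh38.p14, 250 bases before to 50 after the start, 5′ to 3′ on the gene's strand) are printed for POLR1G, NCL and POLR1B, among the called members of smallest p, and for MYBBP1A and NOP14, the next 2 that hold the letters CACGTG. Capitals mark CACGTG, the E-box letters that MYC and MAX are known to bind, which read the same on both strands.
POLR1G, chr19:45406394-45406693, plus strand: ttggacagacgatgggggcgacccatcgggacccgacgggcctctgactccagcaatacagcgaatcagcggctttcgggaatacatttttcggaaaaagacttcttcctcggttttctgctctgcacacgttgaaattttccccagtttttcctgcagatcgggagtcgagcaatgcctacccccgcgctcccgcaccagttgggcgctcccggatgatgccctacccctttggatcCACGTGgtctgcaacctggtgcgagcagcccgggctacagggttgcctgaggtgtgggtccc
NCL, chr2:231464435-231464734, minus strand: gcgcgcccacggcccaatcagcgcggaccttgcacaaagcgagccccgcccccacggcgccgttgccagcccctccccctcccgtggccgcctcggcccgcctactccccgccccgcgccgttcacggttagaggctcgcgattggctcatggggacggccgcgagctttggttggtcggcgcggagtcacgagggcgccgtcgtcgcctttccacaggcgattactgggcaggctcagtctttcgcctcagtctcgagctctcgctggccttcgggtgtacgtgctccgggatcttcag
POLR1B, chr2:112541786-112542085, plus strand: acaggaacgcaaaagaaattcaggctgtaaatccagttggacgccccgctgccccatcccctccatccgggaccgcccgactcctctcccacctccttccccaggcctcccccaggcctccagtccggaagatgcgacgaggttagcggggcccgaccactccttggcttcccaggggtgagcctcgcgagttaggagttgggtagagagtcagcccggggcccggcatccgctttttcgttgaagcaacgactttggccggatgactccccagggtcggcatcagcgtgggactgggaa
MYBBP1A, chr17:4555335-4555634, minus strand: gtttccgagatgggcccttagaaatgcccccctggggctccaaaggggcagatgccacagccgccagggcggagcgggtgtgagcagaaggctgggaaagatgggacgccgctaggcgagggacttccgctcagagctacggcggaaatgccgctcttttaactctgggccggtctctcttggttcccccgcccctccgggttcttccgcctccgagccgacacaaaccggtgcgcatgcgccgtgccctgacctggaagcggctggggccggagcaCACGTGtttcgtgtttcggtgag
NOP14, chr4:2963357-2963656, minus strand: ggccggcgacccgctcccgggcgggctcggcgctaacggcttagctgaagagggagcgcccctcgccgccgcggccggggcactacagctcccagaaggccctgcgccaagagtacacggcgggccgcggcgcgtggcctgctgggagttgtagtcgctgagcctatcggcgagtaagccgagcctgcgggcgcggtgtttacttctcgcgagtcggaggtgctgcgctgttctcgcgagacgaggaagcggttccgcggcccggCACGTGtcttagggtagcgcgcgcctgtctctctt
The letters begin at position -12 from the annotated start in POLR1G, at 28 in MYBBP1A and at 16 in NOP14, and the NCL and POLR1B windows do not hold them.

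Promoter windows were matched for 9442 of the 11548 protein-coding genes tested, and CACGTG stood in 10.3% of them (7.43% of all 27305 windows in the table). It stood in 22.3% of the windows of genes called lower (74 of 332), in 4.80% of those called higher (18 of 375) and in 37.3% of the ribosome biogenesis windows (19 of 51). It also stood in 33.3% of the windows of the lysosome and autophagy list (9 of 27), in which 2 genes rose and 0 fell. Within the ribosome biogenesis list the letters were in 9 of 22 windows of members called lower and in 10 of 29 of the others. Of the other letters searched on both strands, TGATGCA is the start of an element bound by ATF4 with CEBP factors. It stood in 1.33% of tested windows, 2.13% of those called higher and 2.71% of those called lower. Among the lists it stood in 37.5% of the 16 tRNA ligase windows, 10.5% of the 19 ATF4 list windows and 11.1% of the 27 antigen presentation windows. TGACGTC, most of the cyclic AMP response element, stood in 5.80% of tested windows, 2.93% of those called higher and 6.33% of those called lower. These shares describe letters in a window and were not tested.

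NCL, which encodes nucleolin, a main protein of the nucleolus (chr2:231453531-231483641, minus strand, GRCh38, GENCODE v44), had 1222, 1076 and 1221 CPM in DMSO and 728, 584 and 676 CPM under GS716054, with no overlap, a log2 fold change of -0.83 (SE 0.14, adjusted p = 0.00562) and the highest DMSO level of the genes called lower. POLR1G, a subunit of RNA polymerase I, fell from 52, 44 and 55.3 to 21.2, 23.7 and 24.2 CPM (-1.12, SE 0.14, adjusted p = 0.00119). Of its exonic length 49.8% overlaps ERCC1 on the opposite strand, and the strand setting of the counting is not given in the sources used here. NOP14, MCM2, SLC1A5 and TAPBP likewise overlap annotations of the opposite strand over 20.7 to 23.8% of their exonic length. POLR1B, the second largest subunit of that polymerase, fell by 0.71 (SE 0.12, adjusted p = 0.00625), and RRP1B, a nucleolar processing factor, had -0.88 (SE 0.14, adjusted p = 0.00408). POLR3G, a subunit of RNA polymerase III, had -1.30 (SE 0.24, adjusted p = 0.00965). NCL, POLR1G and RRP1B were called whichever 1 library was left out. POLR1B lost its call without GS716054 replicate 3 (adjusted p up to 0.0542), and POLR3G without GS716054 replicate 1 or 3 (adjusted p up to 0.0685). Members that missed the threshold included NPM1 (-0.39, adjusted p = 0.185), FBL (-0.46, 0.0828) and the polymerase I factor RRN3 (-0.23, 0.227). The cytosolic ribosomal proteins, which form the finished ribosome, had a median on the other side of 0. Of 79 tested, 0 were called in either direction by edgeR (2 at an unadjusted p under 0.05, 1 by DESeq2's Wald test, 1 lower with the block within each time), and their median log2 fold change was 0.16.

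**Figure D2:**
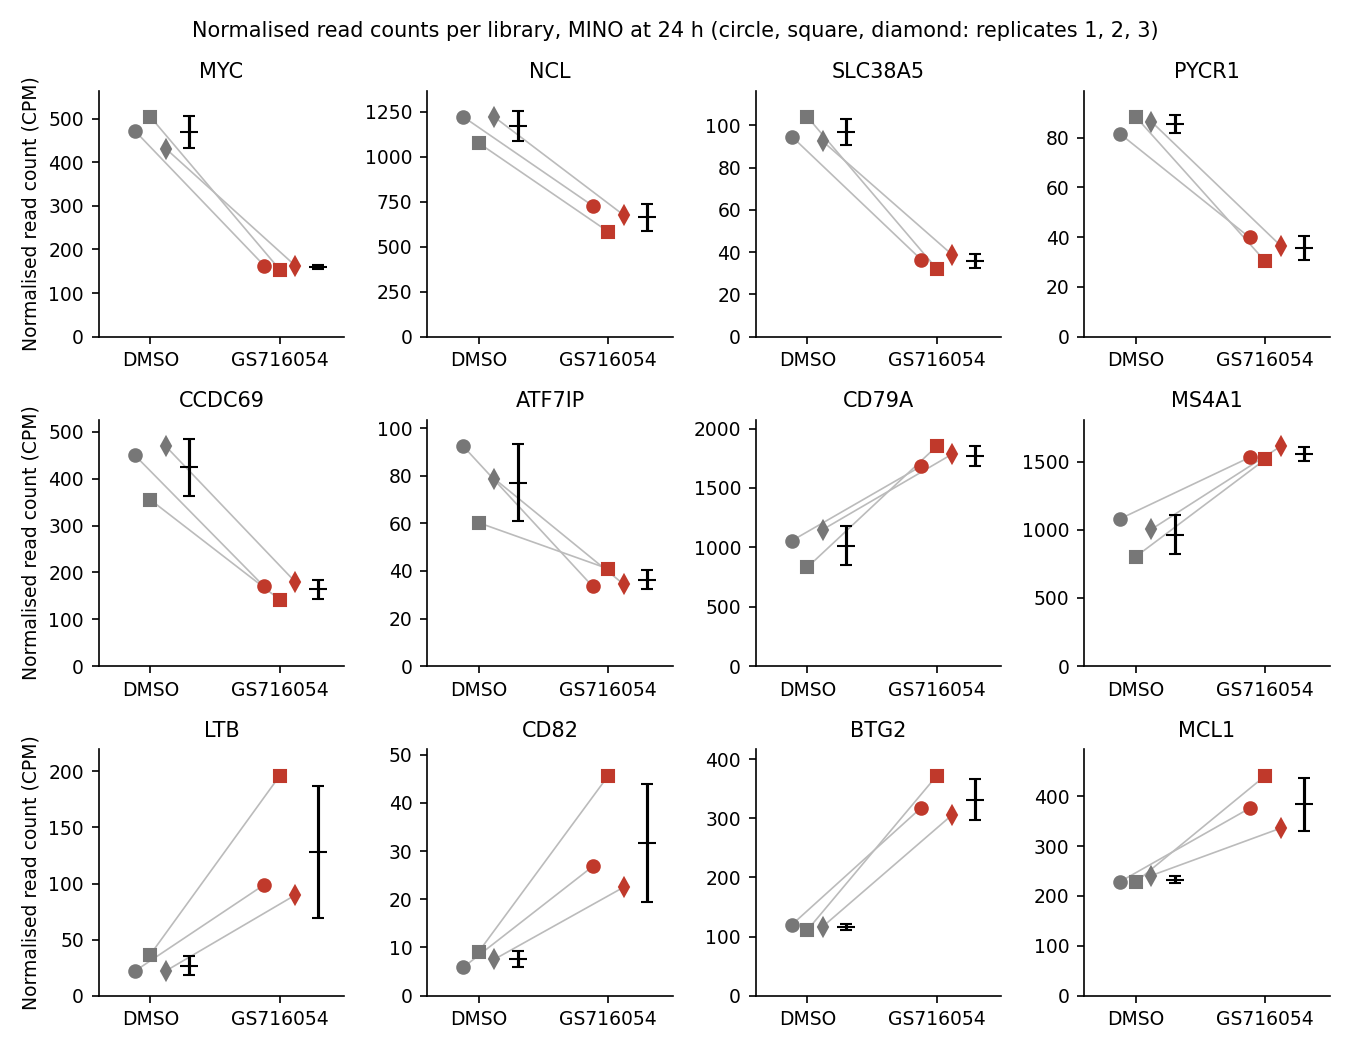
Normalised read counts (CPM, y axis from 0) of 12 genes in the DMSO and GS716054 libraries of MINO at 24 h. Grey and red points are single libraries, lines join equal replicate numbers, and black bars give the mean ± SD; treated libraries lie below DMSO for MYC, NCL, SLC38A5, PYCR1, CCDC69 and ATF7IP and above it for the other 6 genes.

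Nucleotide and folate synthesis genes were lower as well. Of 36 tested, 10 fell (27.8% against 2.88% of all genes) and 0 rose, the median log2 fold change was -0.51, and 33 were negative. The fit with the block within each time called 22 lower and 1 higher, the fit without a block 2 lower, and fits without 1 library 3 to 8 lower. SLC19A1, the reduced folate carrier, went from 56.8, 59.4 and 63 CPM in DMSO to 23.4, 20.9 and 30.4 CPM, with every treated library below every DMSO library (-1.28, SE 0.12, adjusted p = 0.000533). CAD, which carries out the first steps of pyrimidine synthesis, fell from 267, 242 and 236 to 137, 91.2 and 113 CPM (-1.16, SE 0.20, adjusted p = 0.00612). MTHFD1L, a mitochondrial enzyme of folate metabolism, had -1.15 (SE 0.22, adjusted p = 0.0114), and IMPDH1, an enzyme of guanine nucleotide synthesis, -0.69 (SE 0.12, adjusted p = 0.00601). Further enzymes of purine synthesis also fell, PFAS by 0.86, PAICS by 0.70 and PPAT by 0.66. SLC19A1 and IMPDH1 were called whichever 1 library was left out, but IMPDH1 was not called without a block (adjusted p = 0.0569). CAD lost its call without GS716054 replicate 3 (adjusted p up to 0.0542), MTHFD1L without GS716054 replicate 1 or 3 (adjusted p up to 0.0746), PAICS without DMSO replicate 2 or GS716054 replicate 2 or 3 (adjusted p up to 0.0692), PFAS without any library other than DMSO replicate 1 or 3 (adjusted p up to 0.141), and PPAT without any library other than DMSO replicate 3 or GS716054 replicate 3 (adjusted p up to 0.0905). IMPDH2 (-0.07) and SHMT2 (-0.23) were not called.

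DNA replication genes had a similar median but few calls. Of 57 tested, 55 had a negative log2 fold change (median -0.49) and 5 fell (8.77% against 2.88% of all genes). The block within each time called 31, and no member was called without a block. Leaving out any 1 of the 6 libraries left 0 to 2. POLD2, a subunit of DNA polymerase delta, fell from 276, 258 and 294 to 164, 152 and 182 CPM (-0.74, SE 0.13, adjusted p = 0.00882). The histone chaperone subunit CHAF1B had -0.74 (SE 0.18, adjusted p = 0.0313) and the polymerase alpha subunit POLA1 -0.53 (SE 0.12, adjusted p = 0.0233). CDC25A, a phosphatase that activates CDKs (-0.83, adjusted p = 0.0467), and RFC5, a clamp loader subunit (-0.54, 0.0348), completed the 5. POLD2 lost its call without GS716054 replicate 1 or 3 (adjusted p up to 0.0681), CHAF1B without any library other than DMSO replicate 1 (adjusted p up to 0.177), POLA1 without any library other than DMSO replicate 3 (adjusted p up to 0.125), and CDC25A and RFC5 without any 1 of the 6 libraries (adjusted p up to 0.221). MCM2 to MCM7 lay between -0.58 and -0.14 and were not called. Mitosis genes were closer to 0, with 0 of 56 called by edgeR (6 at an unadjusted p under 0.05, 2 by DESeq2's Wald test, 3 lower with the block within each time), a median of -0.21 and MKI67 at -0.16.

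In the cyclin D group, CCND1, the gene driven by the mantle cell lymphoma translocation, had 1880, 1591 and 1888 CPM in DMSO and 1786, 1757 and 1556 CPM under GS716054. These ranges overlap, and its log2 fold change of -0.08 (SE 0.18, adjusted p = 0.842) was not called. CDK4, the kinase partner of cyclin D, fell from 248, 250 and 276 to 183, 165 and 190 CPM, without overlap (-0.53, SE 0.12, adjusted p = 0.0282). Of its exonic length 44.2% overlaps TSPAN31 on the opposite strand. CDKN2B, an inhibitor of CDK4 and CDK6, rose from 0.654, 1.82 and 0.729 to 3.26, 3.59 and 2.45 CPM (1.64, SE 0.40, adjusted p = 0.0319). CDKN2B lost its call without any library other than GS716054 replicate 2 (adjusted p up to 0.15), and CDK4 without any 1 of the 6 libraries (adjusted p up to 0.134). The other 18 tested members were not called (of all 20, 3 rose and 3 fell with the block within each time and 0 were called without a block), among them CDKN1A (0.25), CDKN1B (0.30), RB1 (0.27), and CDKN1C, at 1.86 with an adjusted p of 0.0615. CDKN2B and CDK4 each made 5% of the list, against 3.73% of all genes higher and 2.88% lower.

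Transporters and enzymes that supply amino acids were among the genes that fell. SLC38A5, a transporter of glutamine and other neutral amino acids (chrX:48458537-48470260, minus strand), had 94.7, 104 and 92.4 CPM in DMSO and 36.5, 32.2 and 38.8 CPM under GS716054. All treated libraries lay below all DMSO libraries, and the log2 fold change was -1.45 (SE 0.15, adjusted p = 0.000579). The cationic transporter SLC7A1 fell from 222, 191 and 247 to 133, 75.9 and 125 CPM (-1.01, SE 0.14, adjusted p = 0.00204), and the glutamine carrier SLC1A5 had -0.77 (SE 0.15, adjusted p = 0.0121). Of 20 transporters tested, 6 fell (SLC6A9, SLC43A1 and SLC43A3 being the others) and 2 rose, SLC7A7 at 0.94 and SLC43A2 at 0.47. These made 30% and 10% of the list, against 2.88% and 3.73% of all genes. With the block within each time 7 fell and 2 rose, without a block 5 and 0, and without any 1 of the 6 libraries 3 to 6 fell and 0 to 1 rose. SLC38A5 and SLC7A1 were called whichever 1 library was left out. SLC43A1 lost its call without GS716054 replicate 3 (adjusted p up to 0.0502), SLC1A5 without DMSO replicate 3 or GS716054 replicate 2 (adjusted p up to 0.058), SLC43A3 without GS716054 replicate 1 or 3 (adjusted p up to 0.0673), SLC6A9 without any library other than DMSO replicate 1 or 3 (adjusted p up to 0.103), SLC7A7 without any library other than DMSO replicate 1 or GS716054 replicate 2 (adjusted p up to 0.111), and SLC43A2 without any 1 of the 6 libraries (adjusted p up to 0.185). SLC7A5 and SLC3A2, which form the large neutral amino acid exchanger, had -0.46 and -0.32 and were not called.

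PYCR1, the last enzyme of proline synthesis, fell from 81.5, 88.4 and 86.5 to 39.9, 30.4 and 36.6 CPM (-1.27, SE 0.14, adjusted p = 0.000607), again without overlap. It belongs to the arginine and polyamine list, in which 3 of 25 fell and 2 rose (8 and 2 with the block within each time, 1 and 1 without a block, 1 to 2 and 0 without any 1 of the 6 libraries), with a median of -0.13. Calls were 12% of that list lower and 8% higher, against 2.88% and 3.73% of all genes. The others that fell were the spermidine synthase SRM (-0.87, SE 0.21, adjusted p = 0.0293) and ASS1, an enzyme of arginine synthesis (-0.84, SE 0.21, adjusted p = 0.0342), and ODC1, the first enzyme of polyamine synthesis, had -0.54 (adjusted p = 0.0583). PYCR1 was called whichever 1 library was left out. SRM lost its call without any library other than GS716054 replicate 2 (adjusted p up to 0.157), and ASS1 without any 1 of the 6 libraries (adjusted p up to 0.148). In the ATF4 list, whose genes answer amino acid shortage, 7 of 23 fell and 1 rose, with a median of -0.37. Those were 30.4% and 4.35% of the list, against 2.88% and 3.73% of all genes. Of the list 8 fell and 1 rose with the block within each time, 4 and 0 without a block, and 3 to 5 fell without any 1 of the 6 libraries (3 without DMSO replicate 2). ATF4 itself fell from 221, 248 and 231 to 141, 125 and 154 CPM (-0.73, SE 0.16, adjusted p = 0.0213). PHGDH, the first enzyme of serine synthesis, fell from 176, 165 and 190 to 109, 63.1 and 113 CPM (-0.95, SE 0.15, adjusted p = 0.00444). XPOT, the exporter of tRNA from the nucleus, had -0.83 (SE 0.11, adjusted p = 0.00169) and the alanine transaminase GPT2 -0.78 (SE 0.12, adjusted p = 0.00457). At low counts, ATF3 fell by 1.57 and CHAC1, which breaks down glutathione, by 1.5. The stress gene DDIT4 was the member that rose, at 1.19 (SE 0.32, adjusted p = 0.0463). Its groups overlapped, with 26.9, 91.1 and 22.8 CPM in DMSO and 61, 152 and 63.9 CPM under GS716054. DDIT4 was not called without a block (adjusted p = 0.637). At 72 h it was called lower (-1.36, adjusted p = 0.0174), and its difference between times was not called (adjusted p = 0.121). PHGDH, XPOT and GPT2 were called whichever 1 library was left out, but PHGDH was not called without a block (adjusted p = 0.0874). ATF4 and CHAC1 lost their calls without any library other than GS716054 replicate 3 (adjusted p up to 0.209), ATF3 without any library other than DMSO replicate 1 (adjusted p up to 0.136), and DDIT4 without any library other than GS716054 replicate 2 (adjusted p up to 0.242).

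Of 20 tested cytosolic tRNA ligases, which load tRNAs with amino acids, 6 fell (30% against 2.88% of all genes) and 0 rose, with a median of -0.37. The block within each time called 10 lower, no block 3 and fits without any 1 of the 6 libraries 1 to 3. The fit without DMSO replicate 2 called 2 lower. YARS1 for tyrosine fell from 215, 205 and 224 to 137, 117 and 131 CPM (-0.75, SE 0.11, adjusted p = 0.00327) and IARS1 for isoleucine had -0.82 (SE 0.14, adjusted p = 0.0069). YARS1 was called whichever 1 library was left out. IARS1 lost its call without GS716054 replicate 1 or 3 (adjusted p up to 0.0601). WARS1, RARS1 and QARS1 had log2 fold changes of -0.04, 0.03 and 0.14 and were not called. Chaperones of the heat shock and chaperonin list, which fold new proteins, had a median of -0.40 with 26 of 27 negative. In the fit used here 3 were lower (11.1% against 2.88% of all genes). Lower calls were 7 with the block within each time, 1 without a block and 1 without any 1 of the 6 libraries. FKBP4, a co-chaperone of HSP90, fell from 298, 310 and 323 to 155, 139 and 154 CPM (-1.06, SE 0.17, adjusted p = 0.00462), and AHSA1 and HSPA9 had -0.62 and -0.50. FKBP4 was called whichever 1 library was left out. AHSA1 and HSPA9 lost their calls without any 1 of the 6 libraries (adjusted p up to 0.198).

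In energy and lipid metabolism the counts were small. PFKM, a phosphofructokinase of glycolysis, fell from 58.8, 69.4 and 57.5 to 31.9, 28.1 and 28.6 CPM (-1.06, SE 0.13, adjusted p = 0.00132). Hexokinase HK2 fell too, but DMSO replicate 2 (217 CPM) and GS716054 replicate 2 (134 CPM) both stood above the other libraries of their groups, and the groups overlapped (-0.81, SE 0.22, adjusted p = 0.0491). With the lactate transporter SLC16A1 (-0.59) they made 3 of 36 genes of glycolysis and hypoxia response called lower (median -0.10), with 0 higher (4 higher and 4 lower with the block within each time, 1 to 3 lower without any 1 of the 6 libraries), and GAPDH had -0.11. These 3 were 8.33% of the list, against 2.88% of all genes called lower. PFKM was called whichever 1 library was left out. SLC16A1 lost its call without DMSO replicate 1 or GS716054 replicate 2 or 3 (adjusted p up to 0.0678), and HK2 without any library other than DMSO replicate 2 (adjusted p up to 0.168). In cholesterol and fatty acid synthesis 5 of 33 fell and 0 rose (2 fell without a block, 1 to 2 without any 1 of the 6 libraries), with a median of -0.16. Those 5 were 15.2% of the list, against 2.88% of all genes called lower. ELOVL6, which lengthens fatty acids, had -0.95 (SE 0.16, adjusted p = 0.00612), FASN, the fatty acid synthase, -0.81 (SE 0.19, adjusted p = 0.0263), DHCR7, the last step of cholesterol synthesis, -0.75 (SE 0.16, adjusted p = 0.0198), and SCD, which makes unsaturated fatty acids, -0.62 (SE 0.16, adjusted p = 0.0359). ELOVL6 was called whichever 1 library was left out. DHCR7 lost its call without any library other than DMSO replicate 1 or 3 (adjusted p up to 0.118), FASN without any library other than GS716054 replicate 2 (adjusted p up to 0.148), and SCD without any 1 of the 6 libraries (adjusted p up to 0.142).

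B-cell receptor genes stood higher. Of 44 tested, 11 rose (25% against 3.73% of all genes) and 0 fell, with a median log2 fold change of 0.33 and 37 positive. The block within each time called 19 higher and no block 4, and leaving out any 1 of the 6 libraries left 2 to 4. CD79A, the signalling subunit of the receptor (chr19:41877279-41881372, plus strand), had 1056, 832 and 1150 CPM in DMSO and 1683, 1850 and 1785 CPM under GS716054, with every treated library above every DMSO library (0.80, SE 0.19, adjusted p = 0.0303). Its partner CD79B had 468, 488 and 518 and 727, 812 and 847 CPM (0.69, SE 0.14, adjusted p = 0.0147). LYN, a kinase that starts and also restrains receptor signals, rose from 319, 262 and 325 to 464, 560 and 507 CPM (0.75, SE 0.13, adjusted p = 0.00776). CD22, an inhibitory co-receptor, went from 18.2, 21.7 and 16.9 to 35.8, 45.6 and 36.7 CPM (1.06, SE 0.13, adjusted p = 0.00119). The adaptor BCL10 had 0.69 (SE 0.15, adjusted p = 0.0208) and the Ras exchange factor RASGRP3 1.78 (SE 0.43, adjusted p = 0.0293). LYN and CD22 were called whichever 1 library was left out. BCL10 and RASGRP3 lost their calls without any library other than DMSO replicate 1 (adjusted p up to 0.123), and CD79A and CD79B without any 1 of the 6 libraries (adjusted p up to 0.133). The kinases BTK (-0.05, adjusted p = 0.836) and SYK (0.34, 0.166) were not called.

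Among 20 tested surface antigens that serve as therapy targets in mantle cell lymphoma, 9 rose and 0 fell, with a median of 0.71 (12 with the block within each time, 5 without a block, and 3 to 5 without any 1 of the 6 libraries). The 9 made 45% of the list, against 3.73% of all genes called higher. They included CD79A, CD79B and CD22, also counted in the B-cell receptor list. CD40 and FCRL5 were among them too, and were also counted in the NF-kappaB and Fc receptor lists. MS4A1, which encodes CD20, had 1081, 803 and 1003 CPM in DMSO and 1530, 1515 and 1611 CPM under GS716054, with DMSO replicate 2 the lowest and no overlap (0.70, SE 0.15, adjusted p = 0.0214). The tetraspanin CD37 rose from 261, 309 and 269 to 453, 659 and 435 CPM (0.85, SE 0.15, adjusted p = 0.00834). TNFRSF13C, the receptor for the survival factor BAFF, rose from 108, 134 and 118 to 194, 241 and 182 CPM (0.78, SE 0.12, adjusted p = 0.00388). TNFRSF13C was called whichever 1 library was left out. CD37 lost its call without GS716054 replicate 1 (adjusted p up to 0.0544), and MS4A1 and CD52 without any 1 of the 6 libraries (adjusted p up to 0.113). CD52 had 0.72. CD5 (0.50, adjusted p = 0.0545), CD38 (-0.14) and CD47 (0.05) were not called.

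Fc receptors and related genes had the highest list median, 0.80, with 4 of 13 higher and 0 lower (7 with the block within each time, 0 without a block, 0 to 1 without any 1 of the 6 libraries). Those 4 were 30.8% of the list, against 3.73% of all genes called higher. FCMR, the receptor for IgM, had 513, 443 and 554 and 844, 917 and 867 CPM (0.79, SE 0.21, adjusted p = 0.0413, 24.1% of its exonic length overlapping IL24 on the opposite strand), and FCRL5 103, 145 and 91.3 and 193, 258 and 168 CPM (0.87, SE 0.17, adjusted p = 0.0122). FCER2, which encodes CD23, and FCGRT, the neonatal Fc receptor, had 1.14 and 0.96. FCRL5 lost its call without any library other than DMSO replicate 2 (adjusted p up to 0.0754), FCGRT without any library other than GS716054 replicate 2 (adjusted p up to 0.154), and FCMR and FCER2 without any 1 of the 6 libraries (adjusted p up to 0.189). The inhibitory receptor FCGR2B had 0.68 (adjusted p = 0.0734).

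NF-kappaB genes also stood higher, with 12 of 37 higher (32.4% against 3.73% of all genes), 0 lower and a median of 0.61. The block within each time called 20 higher, no block 4, and fits without any 1 of the 6 libraries 2 to 8. CD40, a receptor that activates the pathway, had 42.7, 66.3 and 49.5 CPM in DMSO and 82.9, 128 and 90.6 CPM under GS716054 (0.92, SE 0.16, adjusted p = 0.00666). CD83, an activation marker, rose from 142, 228 and 212 to 312, 563 and 431 CPM (1.16, SE 0.21, adjusted p = 0.00925). The subunits NFKB2 and RELB of the alternative pathway had 0.60 (SE 0.11, adjusted p = 0.0106) and 0.69 (SE 0.14, adjusted p = 0.0122), while NFKB1 (0.13) and RELA (0.01) were not called. Targets with the largest folds had low counts. IL2RA, the interleukin-2 receptor alpha chain, had 1.09, 2.92 and 0.648 and 3.46, 9.43 and 2.77 CPM (1.82, SE 0.27, adjusted p = 0.00322), and replicate 2 was the highest of both groups. The chemokine CCL22 had 1.2, 10.7 and 4.3 and 17.9, 68.8 and 11.7 CPM (2.47, SE 0.52, adjusted p = 0.0166), again with replicate 2 highest. IL2RA was called whichever 1 library was left out, but its groups overlapped and it was not called without a block (adjusted p = 0.335). CD40 lost its call without GS716054 replicate 2 (adjusted p up to 0.0559), CD83 without GS716054 replicate 2 or 3 (adjusted p up to 0.0635), NFKB2 without DMSO replicate 1 or GS716054 replicate 3 (adjusted p up to 0.0686), CCL22 without GS716054 replicate 1 or 2 (adjusted p up to 0.123), and RELB without any library other than DMSO replicate 3 or GS716054 replicate 1 (adjusted p up to 0.0707). The inhibitors NFKBIA (0.53) and TNFAIP3 (0.77, adjusted p = 0.0713) were not called.

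LTB, which encodes lymphotoxin beta (chr6:31580525-31582522, minus strand), had one of the smallest adjusted p-values of all genes, as did MYC and CD82. It had 21.9, 36.7 and 22.1 CPM in DMSO and 98.9, 196 and 89.7 CPM under GS716054, with replicate 2 highest in both groups and every treated library above every DMSO library. The means were 26.9 ± 8.49 and 128 ± 58.9 CPM (SD, n = 3), with a log2 fold change of 2.22 (SE 0.19, adjusted p = 0.000223). Its partner LTA had 6.54, 10.5 and 9.08 and 13.6, 22.4 and 14.4 CPM (0.93, SE 0.22, adjusted p = 0.0298). With TNFRSF13C, these were the 3 of 23 TNF ligands and receptors called higher (13% against 3.73% of all genes), 0 fell, and the median was 0.58. With the block within each time 9 were higher and 1 lower. TNF itself had 0.92 (adjusted p = 0.0787). LTB was called whichever 1 library was left out. LTA lost its call without any library other than DMSO replicate 3 (adjusted p up to 0.15).

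Immediate early genes, which answer receptor signals within minutes to hours, had 8 of 32 higher (25% against 3.73% of all genes) and 0 lower, with a median of 0.53. The block within each time called 15 higher, no block 2, and fits without any 1 of the 6 libraries 1 to 7. DUSP5, a phosphatase that switches off ERK in the nucleus, rose from 15.8, 20.2 and 14.2 to 35.9, 69.4 and 41.2 CPM without overlap (1.52, SE 0.18, adjusted p = 0.000968). EGR2 had 19.3, 17 and 35.2 and 47.3, 52.2 and 72.5 CPM (1.28, SE 0.28, adjusted p = 0.02), BTG1, an antiproliferative gene, 0.89 (SE 0.19, adjusted p = 0.018), and JUN, an AP-1 subunit, 1.06 (SE 0.25, adjusted p = 0.0281). DUSP5 was called whichever 1 library was left out. BTG1 lost its call without any library other than DMSO replicate 1 or 3 (adjusted p up to 0.0928), EGR2 without any library other than DMSO replicate 3 (adjusted p up to 0.123), and JUN without any 1 of the 6 libraries (adjusted p up to 0.161). FOS (0.81, adjusted p = 0.693) and EGR1 (0.67, 0.292) were not called.

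Of 30 tested transcription factors that set B-cell stage, 7 rose (23.3% against 3.73% of all genes) and 0 fell, with a median of 0.35. The block within each time called 14 higher and 1 lower, no block 2 higher, and fits without any 1 of the 6 libraries 1 to 3. IRF8, a factor of germinal centre and mature B cells, rose from 22.7, 29.5 and 17.3 to 40.8, 58.7 and 33 CPM (0.93, SE 0.16, adjusted p = 0.00612). BCL6, the main repressor of the germinal centre stage, had 2.18, 2.37 and 3.16 and 7.42, 9.35 and 8.08 CPM (1.69, SE 0.37, adjusted p = 0.0214). ETS1, MEF2C, TCF4 and SPIB also rose, at 0.66, 0.68, 0.74 and 0.97. IRF8 was called whichever 1 library was left out, but not without a block (adjusted p = 0.175). BCL6 lost its call without DMSO replicate 2 or GS716054 replicate 1 or 3 (adjusted p up to 0.1), ETS1 without DMSO replicate 2 or 3 or GS716054 replicate 2 (adjusted p up to 0.078), and MEF2C, TCF4 and SPIB without any 1 of the 6 libraries (adjusted p up to 0.173). SOX11, the factor typical of mantle cell lymphoma, had 154, 141 and 158 CPM in DMSO and 176, 182 and 171 CPM under GS716054 (0.21, SE 0.18, adjusted p = 0.516). PAX5 (0.39) and the plasma cell factors PRDM1 (0.07) and XBP1 (-0.45) were not called. Of 14 immunoglobulin and related genes (median -0.20), 2 rose and 5 fell with the block within each time and 0 were called without a block. In the fit used here 1 fell (7.14% against 2.88% of all genes). It was the lambda constant gene IGLC3 (-0.55, SE 0.12, adjusted p = 0.0248), which has near-identical copies, and IGHM had -0.01. IGLC3 lost its call without any library other than DMSO replicate 2 (adjusted p up to 0.108).

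Receptors that guide B cells to lymphoid tissue had a median of 0.65, with 8 of 30 higher and 1 lower (17 and 1 with the block within each time, 5 and 0 without a block, 3 to 6 higher without any 1 of the 6 libraries). Calls were 26.7% of the list higher and 3.33% lower, against 3.73% and 2.88% of all genes. CXCR5, the receptor that leads B cells into follicles, had 57.8, 65.9 and 69.5 CPM in DMSO and 115, 156 and 110 CPM under GS716054 (0.96, SE 0.14, adjusted p = 0.00358), but 91.1% of its exonic length overlaps BCL9L on the opposite strand. CCR7, the lymph node homing receptor, had 147, 161 and 167 and 228, 337 and 251 CPM (0.75, SE 0.14, adjusted p = 0.0121). ITGB7, an integrin subunit of gut homing, rose from 43.4, 35.9 and 34.7 to 74.7, 66.1 and 59.5 CPM (0.81, SE 0.13, adjusted p = 0.00507), with 42.3% of its exons opposite ZNF740, and the cannabinoid receptor CNR1 from 16.4, 21.4 and 18.5 to 36.9, 43 and 31.1 CPM (0.98, SE 0.15, adjusted p = 0.00437). RGS16, which dampens chemokine receptor signals, was the member that fell (-1.14, SE 0.29, adjusted p = 0.038). CXCR5, ITGB7 and CNR1 were called whichever 1 library was left out. CCR7 lost its call without GS716054 replicate 1 or 3 (adjusted p up to 0.0583), and RGS16 without any 1 of the 6 libraries (adjusted p up to 0.18). CXCR4 had 0.63 (adjusted p = 0.243).

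In the BCL2 family, which sets the threshold for apoptosis, 5 of 15 rose (33.3% against 3.73% of all genes) and 0 fell, with a median of 0.48. The block within each time called 8 higher, no block 1, and fits without any 1 of the 6 libraries 1 to 5. Among the guardians that block apoptosis, MCL1 rose from 229, 228 and 241 to 376, 441 and 336 CPM (0.72, SE 0.13, adjusted p = 0.00922) and BCL2A1 from 1.42, 5.05 and 1.94 to 8.01, 23.8 and 11.7 CPM (2.38, SE 0.40, adjusted p = 0.0061). BCL2 had 87.4, 96.7 and 84.2 CPM in DMSO and 110, 171 and 106 CPM under GS716054, with 171 CPM in replicate 2 above the others. It was not called (0.48, SE 0.20, adjusted p = 0.174), but was with the block within each time (adjusted p = 0.0257). Without a block the adjusted p of BCL2 was 0.474, and no fit that left out 1 library called it. BH3-only genes, which promote apoptosis, also rose. HRK had 1.84 (SE 0.39, adjusted p = 0.0166), BIK 0.90 (SE 0.23, adjusted p = 0.0404) and BBC3 0.65 (SE 0.15, adjusted p = 0.0287). BCL2A1 was called whichever 1 library was left out, but not without a block (adjusted p = 0.051). MCL1 lost its call without GS716054 replicate 2 (adjusted p up to 0.0578), HRK without DMSO replicate 2 or GS716054 replicate 1 or 2 (adjusted p up to 0.126), and BIK and BBC3 without any library other than DMSO replicate 1 (adjusted p up to 0.2). The effectors BAX (0.07) and BAK1 (-0.07) were not called.

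Of 27 genes on a list of p53 targets, 5 rose (18.5% against 3.73% of all genes) and 0 fell, with a median of 0.21. The 5 included BBC3, which was also counted in the BCL2 family. With the block within each time 7 rose and 1 fell, without a block 3 and 0, and 2 to 4 rose without any 1 of the 6 libraries. BTG2, an antiproliferative gene (chr1:203305491-203309602, plus strand), had 120, 111 and 117 CPM in DMSO and 318, 372 and 306 CPM under GS716054, with a narrow spread in each group and no overlap (1.5, SE 0.16, adjusted p = 0.000607). TP53INP1, a stress protein of autophagy and cell death, rose from 10.3, 6.08 and 7.62 to 28.3, 45.1 and 29.2 CPM (2.04, SE 0.28, adjusted p = 0.00217), and ZMAT3 had 0.68 (SE 0.13, adjusted p = 0.0107). BTG2 and TP53INP1 were called whichever 1 library was left out. ZMAT3 lost its call without GS716054 replicate 1 or 2 (adjusted p up to 0.0679). CDKN1A, MDM2 and GADD45A, members of the same list, had 0.25, 0.39 and 0.27 and were not called.

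Antigen presentation genes had a median of 0.30, with 4 of 33 higher (12.1% against 3.73% of all genes) and 0 lower. With the block within each time 11 were higher and 1 lower, without a block 1 and 0, and 0 to 1 were higher without any 1 of the 6 libraries. All 4 act in peptide loading, HLA-DOB (0.92, SE 0.19, adjusted p = 0.0153), HLA-DMA (0.72, SE 0.17, adjusted p = 0.0256), HLA-DMB (0.68, SE 0.17, adjusted p = 0.032) and TAPBP (0.44, SE 0.11, adjusted p = 0.0372). HLA-DOB lost its call without any library other than DMSO replicate 2 or GS716054 replicate 2 (adjusted p up to 0.0993), and HLA-DMA, HLA-DMB and TAPBP without any 1 of the 6 libraries (adjusted p up to 0.171). The HLA genes share sequence, and the handling of reads that fit several of them is not given. The class II activator CIITA (0.13) and the invariant chain CD74 (0.61, adjusted p = 0.131) were not called. Of 40 interferon-stimulated genes, 6 rose and 1 fell, with a median of 0.30 (11 and 1 with the block within each time, 2 and 0 without a block, 1 to 3 higher without any 1 of the 6 libraries). Those were 15% and 2.5% of the list, against 3.73% and 2.88% of all genes. ISG20, an RNA exonuclease, went from 15.4, 21.6 and 16.3 to 40.1, 53.8 and 31.1 CPM (1.22, SE 0.15, adjusted p = 0.00119), ZBP1, a sensor of Z-form nucleic acid, had 1.72 (SE 0.33, adjusted p = 0.0121) and the signal transducer STAT2 0.70 (SE 0.13, adjusted p = 0.0107). EIF2AK2, the kinase PKR, was the gene that fell (-0.58, SE 0.14, adjusted p = 0.0316). ISG20 was called whichever 1 library was left out. ZBP1 lost its call without DMSO replicate 2 or GS716054 replicate 1 or 3 (adjusted p up to 0.071), STAT2 without DMSO replicate 2 or GS716054 replicate 1 or 2 (adjusted p up to 0.0579), and EIF2AK2 without any library other than DMSO replicate 1 (adjusted p up to 0.164). ISG15 (0.03) and MX1 (-0.02) lay near 0.

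Among 17 factors of the ATF7IP, SETDB1 and HUSH silencing systems, which place repressive H3K9 methylation, 3 fell and 0 rose, with a median of -0.24 (4 fell with the block within each time, 2 without a block, 1 to 3 without any 1 of the 6 libraries). Those 3 were 17.6% of the list, against 2.88% of all genes called lower. ATF7IP, the partner of SETDB1 (chr12:14365676-14502931, plus strand), had 92.3, 60.2 and 78.7 CPM in DMSO, with replicate 2 lowest, and 33.5, 40.9 and 34.4 CPM under GS716054, without overlap (-1.06, SE 0.18, adjusted p = 0.00597). ZNF274, a zinc finger protein that recruits SETDB1, fell from 21.6, 21.4 and 17.4 to 10.9, 13.9 and 8.16 CPM (-0.89, SE 0.16, adjusted p = 0.00928), and MORC2, an ATPase that works with HUSH, had -0.69 (SE 0.18, adjusted p = 0.0418). ATF7IP was called whichever 1 library was left out. ZNF274 lost its call without GS716054 replicate 1 or 3 (adjusted p up to 0.0639), and MORC2 without any library other than GS716054 replicate 2 (adjusted p up to 0.213). SETDB1 (0.09), TASOR (0.18) and MPHOSPH8 (0.07) were not called. Of 33 other histone lysine methylases and demethylases, 1 fell, RIOX2 (-0.79, adjusted p = 0.0211; 27.9% of its exonic length overlaps CRYBG3 on the opposite strand), and 0 rose (4 higher and 5 lower with the block within each time), with a median of -0.08. RIOX2 lost its call without any library other than GS716054 replicate 2 (adjusted p up to 0.126).

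Several lists held 2 calls or fewer. Of 43 genes of the unfolded protein response and secretion, 0 were called by edgeR (4 at an unadjusted p under 0.05, 2 by DESeq2's Wald test, 1 higher and 1 lower with the block within each time), with a median of 0.00. Of 74 nuclear respiratory chain subunits, 0 were called (7 at an unadjusted p under 0.05, 2 by DESeq2, 3 lower with the block within each time), with a median of -0.07. None of the 13 mitochondrially encoded mRNAs (median 0.17) and 7 germline genes (median 0.10) was called by edgeR or DESeq2 or had an unadjusted p under 0.05. Of 38 lysosome and autophagy genes, 2 cathepsins rose, CTSH (0.73) and CTSZ (0.71, 31.7% of its exonic length overlapping NELFCD on the opposite strand), and 8 were higher with the block within each time and 0 without a block (median 0.24). The 2 were 5.26% of the list, against 3.73% of all genes called higher. CTSH lost its call without DMSO replicate 2 or GS716054 replicate 2 or 3 (adjusted p up to 0.0685), and CTSZ without any 1 of the 6 libraries (adjusted p up to 0.208). Of 31 replication-dependent histone genes, H2BC11 rose, with 3 reads over the DMSO libraries and 30 over the GS716054 libraries, a ratio of 9.53 with an exact 95% interval of 2.96 to 48.8 (list median 0.12). This 1 call was 3.23% of the list, near the 3.73% of all genes called higher. H2BC11 lost its call without any library other than DMSO replicate 1 or GS716054 replicate 2 (adjusted p up to 0.113).

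**Figure D3:**
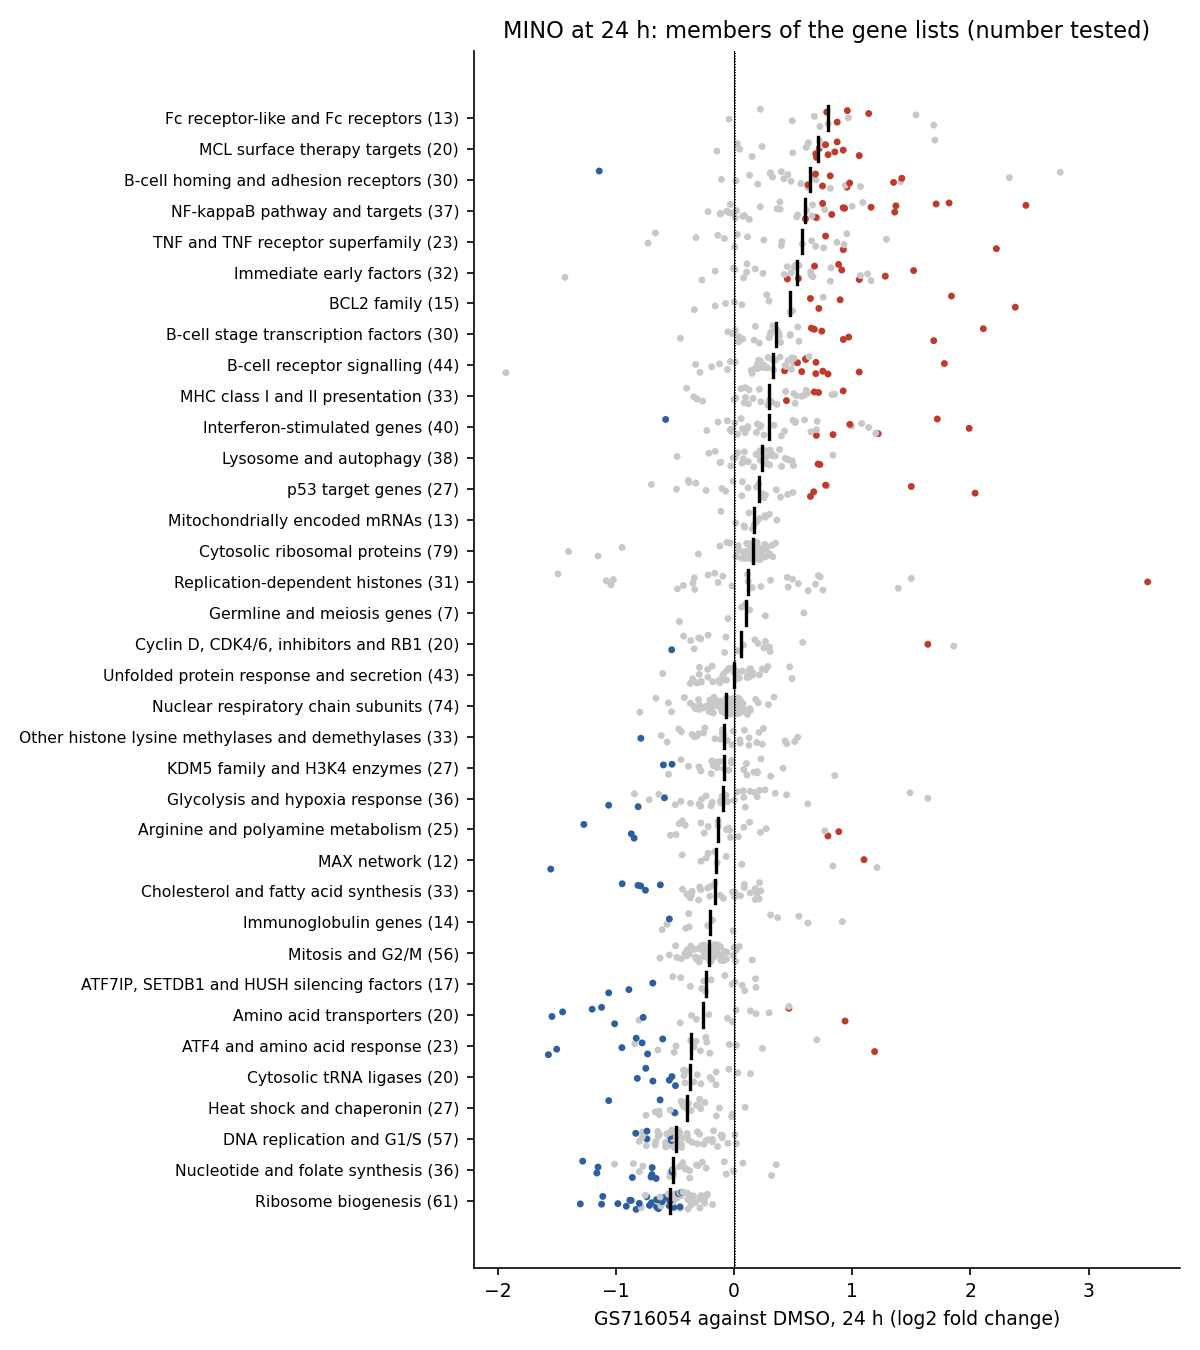
Each point is 1 tested member of a gene list, placed by its log2 fold change of GS716054 against DMSO at 24 h in MINO (x axis), with lists ordered by their median (black bar) and the number tested in brackets. Red points were called higher and blue points lower; ribosome biogenesis has the lowest median (-0.54) and the Fc receptor list the highest (0.80).

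CD82, BDKRB2 and IL4I1 were, with LTB, among the protein-coding genes of smallest p that rose. CD82, a tetraspanin, had 5.89, 9.16 and 7.54 CPM in DMSO and 26.8, 45.6 and 22.5 CPM under GS716054 (2.02, SE 0.17, adjusted p = 0.000223). The bradykinin receptor BDKRB2 rose from 14, 13.3 and 17.2 to 44, 42.9 and 51.5 CPM (1.64, SE 0.15, adjusted p = 0.000412), and IL4I1, a secreted amino acid oxidase, from 3.93, 12.8 and 8.91 to 24.2, 52.1 and 27.7 CPM (2.02, SE 0.20, adjusted p = 0.000539). None of these 3 genes had overlap between treatments. PIGR, which carries IgA and IgM across epithelia, rose from 20.4, 28.7 and 25 to 120, 199 and 114 CPM (2.51, SE 0.28, adjusted p = 0.000607).

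Other large rises were in genes with little RNA in DMSO. The zinc finger gene ZCCHC12 went from 1.2, 1.11 and 1.13 to 7.82, 6.93 and 7.75 CPM (2.71, SE 0.43, adjusted p = 0.00452) and PPP1R17, known from the cerebellum, from 1.09, 0.395 and 1.13 to 4.45, 6.84 and 4.98 CPM (2.65, SE 0.38, adjusted p = 0.00287). SCIMP, an adaptor of antigen-presenting cells, rose from 5.56, 3.16 and 2.76 to 21.4, 18.4 and 14.6 CPM (2.27, SE 0.27, adjusted p = 0.000968), and CRIP2, a LIM domain protein, from 2.84, 10.1 and 3.24 to 14.9, 56.3 and 14 CPM with replicate 2 highest in both groups (2.32, SE 0.26, adjusted p = 0.000707). CD82, BDKRB2, IL4I1, PIGR, ZCCHC12, PPP1R17, SCIMP and CRIP2 were called whichever 1 library was left out. CRIP2 was not called without a block (adjusted p = 0.0913). GLRA3, a glycine receptor subunit, had 2 reads over the 3 DMSO libraries and 46 over the GS716054 libraries. Scaled to gene reads, the ratio was 21.9, with an exact 95% interval of 5.73 to 186 for counting error only. IRAK2, a kinase of Toll-like receptor signalling, had 9 and 75 reads, a ratio of 7.94 with an interval of 3.97 to 18. FSCN1, an actin-bundling protein, had 4 and 42 reads, a ratio of 10 with an interval of 3.63 to 38.4. SMIM24, a small membrane protein, had 2.50 (SE 0.64, adjusted p = 0.0363). Of the abundant genes that rose, DTX1, a regulator of Notch, went from 602, 598 and 668 to 987, 1145 and 879 CPM (0.68, SE 0.15, adjusted p = 0.0213) and PIM2, a survival kinase, from 212, 341 and 186 to 387, 694 and 332 CPM (0.91, SE 0.16, adjusted p = 0.00881). PIM2 lost its call without GS716054 replicate 1 (adjusted p up to 0.0609), GLRA3 without DMSO replicate 2 or GS716054 replicate 2 (adjusted p up to 0.0572), FSCN1 without DMSO replicate 2 or GS716054 replicate 1 or 3 (adjusted p up to 0.119), SMIM24 without any library other than DMSO replicate 3 or GS716054 replicate 2 (adjusted p up to 0.199), IRAK2 without any library other than GS716054 replicate 2 (adjusted p up to 0.219), and DTX1 without any library other than DMSO replicate 3 (adjusted p up to 0.112).

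Among the falls outside the lists, CCDC69, a protein of the mitotic spindle (chr5:151181052-151224093, minus strand), had 450, 355 and 469 CPM in DMSO and 170, 142 and 180 CPM under GS716054 (-1.37, SE 0.15, adjusted p = 0.000607). PUS7, an enzyme that makes pseudouridine in RNA, fell from 46.9, 57.3 and 47.9 to 16.4, 16.8 and 22.3 CPM (-1.48, SE 0.22, adjusted p = 0.0036), with every treated library below every DMSO library. DDN, which encodes dendrin, had -1.54 (SE 0.27, adjusted p = 0.00692). EVPL, a desmosome protein, fell by 1.73, ADAMTS14, a secreted protease, by 1.64, CAMKK1, a calcium-dependent kinase, by 1.57, and VWCE, a secreted protein, by 1.34. TUBA3D, a tubulin with near-identical copies, had 31 reads over the DMSO libraries and 2 over the GS716054 libraries, a ratio of 16.3 with an exact interval of 4.14 to 140. CPNE7, a copine, had -1.72 (SE 0.47, adjusted p = 0.0496). DMSO replicate 2 held 37.4 CPM of CPNE7 against 10.4 and 9.72 CPM in replicates 1 and 3, and without replicate 2 its log2 fold change was -0.83 (adjusted p = 0.225 in edgeR's quasi-likelihood test). CCDC69 and PUS7 were called whichever 1 library was left out. DDN lost its call without GS716054 replicate 3 (adjusted p up to 0.0545), TUBA3D without any library other than DMSO replicate 1 or GS716054 replicate 1 (adjusted p up to 0.101), EVPL without any library other than GS716054 replicate 1 (adjusted p up to 0.107), CPNE7 and VWCE without any library other than DMSO replicate 1 (adjusted p up to 0.243), ADAMTS14 without any library other than DMSO replicate 3 (adjusted p up to 0.242), and CAMKK1 without any 1 of the 6 libraries (adjusted p up to 0.202). Abundant genes of translation and innate signalling also fell, EIF3B, a subunit of the initiation factor that loads ribosomes, at -0.54 (SE 0.12, adjusted p = 0.019) and the kinase IRAK1 at -0.65 (SE 0.15, adjusted p = 0.0231). EIF3B and IRAK1 lost their calls without any 1 of the 6 libraries (adjusted p up to 0.121).

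The 72 h libraries of the same line, with their own DMSO controls, asked whether the early changes were still present. There, 1536 genes were called (10.2%), 896 higher (5.96%) and 640 lower (4.26%). Of the 561 genes higher at 24 h, 355 (63.3%, or 39.6% of the 72 h list) were also called higher at 72 h, and of the 433 lower, 170 (39.3%, or 26.6%) were called lower. Of the genes called higher at 24 h, 3 were called lower at 72 h, and 0 went the other way. MYC stood at -1.69 at 72 h and LTB at 3.67. The ATF4 list had a median of -0.37 at 24 h and -1.11 at 72 h, with 7 and 17 of 23 lower, and the ribosome biogenesis list a median of -0.54 and -0.28, with 28 and 10 of 61 lower, differences between times that were not tested for the lists.

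Gene by gene, the test of the 72 h effect minus the 24 h effect called 6 genes (0.0399%), 1 higher (0.00665%) and 5 lower (0.0333%), with 1097 at an unadjusted p under 0.05. DESeq2's Wald test called 67, and the count was 1 without GS716054 replicate 1. COL18A1, a basement membrane collagen, went from -0.68 at 24 h to 2.09 at 72 h, a difference of 2.77, and 18.5% of its exonic length overlaps SLC19A1 on the opposite strand. ASS1 went from -0.84 to -3.80, a difference of -2.96, and INHBE, an ATF4-responsive hormone subunit, from -0.37 to -4.01, a difference of -3.65. FRY, a microtubule-binding protein, and ENPP2, the enzyme autotaxin, differed by -1.70 and -1.5. ENPP2 was higher at 24 h (0.79, SE 0.13, adjusted p = 0.00535) and fell by 0.71 at 72 h (adjusted p = 0.0053).

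JEKO and UPN-1 at the same time showed how far the MINO response was shared. In 1 model of the 18 libraries at 24 h (16274 genes), JEKO had 148 genes called (0.909%), 0.528% higher and 0.381% lower, and UPN-1 47 (0.289%), 0.221% higher and 0.0676% lower. The MINO calls set beside them are those of the separate fit of the 12 MINO libraries (15028 genes), which has its own estimate of spread. Of the genes called higher in MINO, 18 were also higher in JEKO (3.21% of MINO's list, 20.9% of JEKO's 86) and 8 in UPN-1 (1.43% and 22.2% of 36). Of those called lower, 8 were also lower in JEKO (1.85% and 12.9% of 62) and 3 in UPN-1 (0.693% and 27.3% of 11). The MINO effect differed from the mean effect of JEKO and UPN-1 for 2217 genes (13.6%), 1064 above (6.54%) and 1153 below (7.08%). Without MINO DMSO replicate 2 this count was 1009, without GS716054 replicate 2 it was 997, and without a block 1332. Each pair has its own block in that fit, so leaving out either library of replicate 2 takes the same pair out of the MINO effect.

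By this test 7.08% of all genes had a lower and 6.54% a higher effect in MINO, the backgrounds for the list counts that follow. Of the ribosome biogenesis genes, 47 of 61 had a lower effect by this test in MINO than in the other lines. The median log2 fold changes there were -0.01 in JEKO and 0.01 in UPN-1. Nucleotide and folate synthesis had 24 of 36 lower and 1 higher, DNA replication 31 of 57 lower and the heat shock list 17 of 27 lower. Of the B-cell receptor genes 20 of 44 were above the other lines, of the antigen presentation genes 19 of 33, of the immediate early genes 16 of 32 (1 below) and of the NF-kappaB genes 15 of 37. MYC had a log2 fold change of 0.04 (SE 0.08) in JEKO and -0.06 (SE 0.09) in UPN-1, and the MINO effect differed from their mean by -1.53 (SE 0.11, adjusted p = 5.67e-07). NCL differed by -0.81 (SE 0.11, adjusted p = 0.000103). BTG2 differed by 1.5 (SE 0.10, adjusted p = 5.67e-07), PIGR by 2.62 (SE 0.21, adjusted p = 2.63e-06) and LTB by 2.85 (SE 0.43, adjusted p = 0.000345), and LTB had means of at most 0.973 CPM in the other lines.

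Not every change set MINO apart. CCDC69 also fell in JEKO, by 1.08 (adjusted p = 4.42e-06), and in UPN-1, by 0.60 (adjusted p = 0.0023), and the MINO effect lay below their mean by a difference of -0.51 (SE 0.10, adjusted p = 0.00239). MXD4 rose in JEKO (0.79, adjusted p = 0.000156) and had 0.27 in UPN-1 (adjusted p = 0.288), with MINO above their mean by 0.58 (SE 0.11, adjusted p = 0.00163). ATF7IP fell by 1.42 in UPN-1 (adjusted p = 3.66e-05) and had -0.17 in JEKO (adjusted p = 0.571), and the difference of MINO from their mean was -0.26 (SE 0.16, adjusted p = 0.33). For DDN, by contrast, the MINO effect lay below the mean effect of the other lines by a difference of -2.05 (SE 0.23, adjusted p = 3.43e-05). DDN had 26.1 ± 2.62 CPM in DMSO and 31.3 ± 5.39 CPM under GS716054 (SD, n = 3) in JEKO. In UPN-1 it had 3.78 ± 1.26 and 6.57 ± 1.86 CPM (SD, n = 3), and in MINO 17.3 ± 5.81 and 5.97 ± 0.881 CPM (SD, n = 3).

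**Figure D4:**
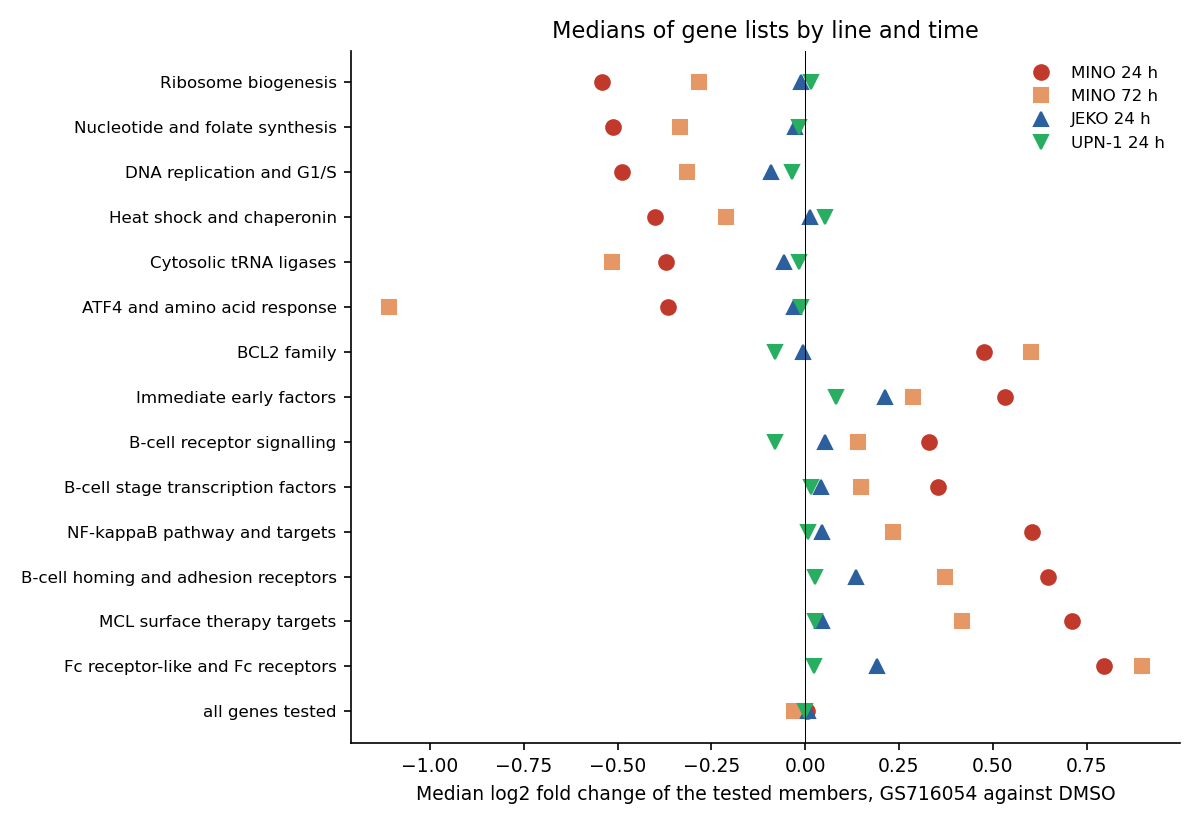
Median log2 fold change (x axis) of the tested members of 14 gene lists and of all genes tested, for GS716054 against DMSO in MINO at 24 h and 72 h and in JEKO and UPN-1 at 24 h. The MINO medians at 24 h run from -0.54 for ribosome biogenesis to 0.80 for the Fc receptor list, and the JEKO and UPN-1 medians of the lists drawn lie between -0.09 and 0.21. Some lists not drawn had larger medians in those lines. These were -0.46 in JEKO and -0.39 in UPN-1 for immunoglobulin genes, and -0.37 and 0.31 for mitochondrially encoded mRNAs. Cytosolic ribosomal proteins had -0.34 in JEKO and -0.04 in UPN-1.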

How the data were processed

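RNA sequencing was done on MINO cells treated with GS716054 or DMSO for 24 h, with 3 libraries per group. The authors deposited 1 table of whole-number read counts per gene for each library. Per the submitters' processing notes, HISAT2 2.2.1, HTSeq 0.13.5 and GRCh38 were used; strandedness and the handling of reads that match several genes are not given in the sources used here. Of 58302 gene IDs, 57532 matched GENCODE release 44. The 5 summary lines of each file (reads in no feature, 43.4 to 44.5% of the reads) were left out, and 12 of the 36 libraries were not used here.

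The 12 MINO libraries were fitted together with edgeR 4.0.16 (quasi-likelihood test, TMM scaling, minimum count of 10, R 4.3.3), with a term for each group and the replicate number as an additive block, which left 6 residual degrees of freedom. P-values were adjusted by Benjamini-Hochberg over 15028 genes and called under 0.05. MINO was compared with JEKO and UPN-1 in 1 such fit of the 18 libraries at 24 h, with a block within each line. At 24 h, the deviations of same-numbered DMSO and GS716054 libraries from their group means had correlations of 0.13, 0.269 and 0.175. Other pairs had -0.183 to 0.0292. Deviations from a group mean cancel within the group, so these sets of values are tied to each other, and the pairing was not tested. Across 24 h and 72 h, libraries of equal number had correlations of -0.0306, -0.0655 and 0.0332 in DMSO and of 0.0813, 0.303 and 0.216 under GS716054. A block within each time is given beside the counts it changes. Values per library are CPM after TMM scaling. The scripts were tested on simulated data.

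The experiment, the 36 gene lists and the 6 marker lists were chosen with earlier results of these data known. The genes named are 11 fixed genes, the 10 largest changes per direction among protein-coding genes of average log2 CPM of at least 1 that changed alike in all 3 pairs, the 5 smallest p and the 5 most abundant per direction, up to 4 called members per list and direction, and the 4 largest differences per direction between lines and between times. Other list members, and the genes whose line values are given beside their MINO result, were named after their values were seen. Some genes that the rule covers are not reported here. Alternatives were no block, a block within each time, only the 6 libraries, DESeq2 1.42.0 size factors and Wald test, library size alone, no low-count filter, a minimum count of 50, and each library left out in turn. Promoter windows were read from RefSeq (GRCh38.p14), and intervals and the limit of 3 counts cover counting error only.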

Additional observations from a re-analysis of the deposited data

Results flagged for a closer look

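The effect of GS716054 in MINO at 24 h differed from the mean effect in JEKO and UPN-1 for 2217 genes by a test of that difference in edgeR. Among genes named here, GLRA3 (3.99 on the log2 scale), H2BC11 (3.42), LTB (2.85), FSCN1 (2.83), PIGR (2.62), BTG2 (1.5) and MXD4 (0.58) stood above the other lines by that test. TUBA3D (-3.44), CPNE7 (-2.14), DDN (-2.05), VWCE (-1.98), MYC (-1.53), NCL (-0.81) and CCDC69 (-0.51) stood below them. GLRA3, H2BC11, FSCN1 and TUBA3D rest on 46 reads or fewer per treatment in MINO. CPNE7 had 20.7 ± 17.1 CPM in DMSO (SD, n = 3), of which DMSO replicate 2 held the most, and without that library its difference was -1.38 (adjusted p = 0.0867). The levels in the other lines differed as well, since GLRA3 had 8.60 ± 0.861 CPM in JEKO DMSO libraries against 0.0678 ± 0.061 CPM in MINO (SD, n = 3).

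The effect at 72 h differed from that at 24 h in MINO for 6 genes by a test of that difference. COL18A1 (2.77) was higher at 72 h, and INHBE (-3.65), ASS1 (-2.96), FRY (-1.70) and ENPP2 (-1.5) were among the 5 that were lower.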

How the results depend on the processing

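The count of 994 genes at 24 h moved to 1796 without the low-count filter, 2557 with only the 6 libraries and no replicate block, 4107 with only the 6 libraries and the replicate block, 2373 with the replicate block within each time and 359 with no replicate block. It was 239 to 454 when 1 library was left out, and with DESeq2 size factors, DESeq2's Wald test, library size alone or a minimum count of 50 it stayed within 1.5 times. The 6 genes that differed between 72 h and 24 h became 67 by DESeq2's Wald test, 185 without the low-count filter, 2 with no replicate block and 1 to 6 when 1 library was left out. The 2217 genes that differed between lines became 1332 with no replicate block and 997 to 1822 when 1 library was left out. The cause was not tested. CCND1, not called, had 0.0282 to -0.247 when 1 library was left out, with the positive value without DMSO replicate 1. Without the replicate block, 71 of the 146 single-gene results of the report's naming rule lost their call and 75 kept their side of the threshold. Depth limits genes under about 1 CPM, where 3 counts are 0.235 to 0.324 CPM.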
